A study of Caenorhabditis elegans with 18 samples.

Results

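Whole second-stage larvae of Caenorhabditis elegans that carried a mutant hsf-1 gene together with an hsf-1::gfp transgene were compared with wild-type larvae after heat shock. The comparison takes 6 of the 18 libraries of the series, 3 of each strain, all from animals grown at 20 °C on OP50 bacteria to the middle of the second larval stage and then kept for 30 min in a water bath at 34 °C. The transgene strain has the genotype hsf-1(sy441) on chromosome I, rmSi1 on chromosome II and unc-119(ed9) on chromosome III, and rmSi1 holds hsf-1::gfp. The promoter of the transgene, its copy number and its place on the chromosome are not stated in the labels. The wild type is N2, which carries none of these alleles. Libraries of hsf-1(sy441) at 34 °C, which have the mutation without the transgene, and libraries of the transgene strain and N2 at 20 °C, collected without heat shock, served to place the values. Each of these groups also had 3 libraries.

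HSF-1 is the heat shock transcription factor. In heated cells it forms trimers, binds heat shock elements in DNA and raises transcription of genes for chaperones such as the Hsp70 family and the small heat shock proteins of the hsp-16 genes. The allele sy441 is a premature stop that removes part of the activation domain, so that these animals make a shortened protein and induce heat shock genes poorly. A functional copy put back as a transgene is the usual test of whether a mutant trait follows from the mutated gene, and the design sets the transgene strain beside both the mutant and N2.

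Depth in the 6 libraries was 16.09 to 27.23 M fragments, and 14219 genes had enough fragments to be tested. Levels are given as CPM, which are fragments scaled to a common library size with TMM composition factors, for replicates 1, 2 and 3 in that order, and summaries are mean ± SD with n = 3. Fold changes are the log2 ratio of the transgene strain over N2 unless another pair is named. Each adjusted p is from edgeR's quasi-likelihood test with Benjamini-Hochberg adjustment over all genes tested unless another tool is named, and a gene was called where it was under 0.05. Whether replicates were separate cultures is not labelled, and the p-values rest on how far these libraries differed from each other. The labels give no dates of extraction or sequencing either, so a batch that went with a strain cannot be told apart from the strain. Log levels correlated at 0.956 to 0.990 within the transgene strain, at 0.942 to 0.984 within N2 and at 0.929 to 0.987 between them. The first principal component held 67.5% of the variance and set replicate 3 of both strains, at 60.9 for the transgene strain and 45.8 for N2, apart from the other libraries, at −55.1 to 3.60. N2 replicate 3 alone had appreciable counts of the yolk protein gene vit-2 (29.0 CPM, at most 1.13 CPM in the other 5 libraries) and of hsp-16.21 (20.1 CPM, at most 1.07 CPM in the others). Summed marker levels had overlapping ranges in both strains for hypodermis (2209 to 8030 CPM in the transgene strain, 3436 to 9096 CPM in N2), intestine (3156 to 6029 CPM in the transgene strain, 2890 to 5727 CPM in N2), neurons (1987 to 2330 CPM in the transgene strain, 1997 to 2227 CPM in N2) and body muscle (12274 to 17034 CPM in the transgene strain, 12742 to 17225 CPM in N2). The sum of the 12 germline markers did not overlap, at 179 to 237 CPM in the transgene strain and 250.4 to 302 CPM in N2. Sums of other gene lists separated too, so this was not particular to the germline. Genes of the respiratory chain and ATP synthase had 20373 to 20710 CPM in the transgene strain and 21944 to 22342 CPM in N2. In the other direction, genes of the CCT chaperonin and prefoldin had 4726 to 5150 CPM in the transgene strain and 4280 to 4453 CPM in N2. Since whole animals were sampled, fewer cells of a type and less RNA per cell cannot be told apart.

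The mutated genes were read first. The gene hsf-1 (Y53C10A.12, at 11953502 to 11961977 on chromosome I, build ce10) had 97.6, 101 and 112 CPM in the transgene strain, 84.8, 92.3 and 98.7 CPM in hsf-1(sy441) and 31.5, 30.7 and 38.5 CPM in N2. Both strains with the sy441 allele lay above N2 with no overlap, and the ranges of the transgene strain and hsf-1(sy441) overlapped. The log2 fold change against N2 was 1.62 with an SE of 0.09 (adjusted p = 1.1e-07), and it was 1.46 at 20 °C (adjusted p = 3.9e-07). Without the transgene, hsf-1(sy441) already stood 1.45 above N2 on the log2 scale (adjusted p = 9.7e-08), and the transgene strain exceeded hsf-1(sy441) by 0.17, which was not called (adjusted p = 0.26). Fragments of the resident gene and of the transgene were counted together. The gene unc-119 (M142.1, at 10902549 to 10908831 on chromosome III), which encodes a lipid-binding protein needed for neuronal development and serves as a selection marker in worm transgenesis, had 2.17, 2.18 and 2.46 CPM in the transgene strain and 13.3, 11.9 and 11.97 CPM in N2. It fell with a log2 fold change of −2.45 and an SE of 0.14 (adjusted p = 8.3e-08), and hsf-1(sy441), which lacks the ed9 allele, averaged 16.9 CPM.

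Across the genome the heated strains differed at a small share of genes. Of the 14219 genes 386 were called, which is 2.71%, with 231 higher (1.62%) and 155 lower (1.09%) in the transgene strain. Most differences were modest. Of the genes that were higher 75 differed by over 2-fold and 27 by over 4-fold, while 90 differed by under 1.5-fold. Of those that were lower 26 passed 2-fold and 5 passed 4-fold, while 76 stayed under 1.5-fold. The median log2 fold change was 0.70 among the higher and −0.59 among the lower genes, against −0.01 over all genes. Side by side, hsf-1(sy441) differed from the same N2 libraries at 4124 genes, or 29% (14.8% higher, 14.2% lower), and the transgene strain differed from hsf-1(sy441) at 1299 genes, or 9.14% (3.9% higher, 5.24% lower). These comparisons share libraries with the main one, so no overlap between their lists is given. The number of calls rested on single libraries. It was 874 without N2 replicate 3 and 164 without N2 replicate 1, and it was 221 to 251 without 1 library of the transgene strain. It was 1202 with the replicate number as a block (4.09% of genes higher, 4.36% lower), which kept all 386. The balance of the calls also moved. DESeq2 called 412 genes higher and 512 lower, the block 582 higher and 620 lower, and the fit without N2 replicate 3 434 higher and 440 lower, against 231 and 155. Scaled by total counts alone 81.2% of the calls were higher in the transgene strain, against 59.8% with TMM factors.

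At the inducible genes hsp-70, hsp-16.2 and hsp-16.41 the libraries of the heated transgene strain lay above hsf-1(sy441) and below N2, although none of these genes was called against N2. The inducible Hsp70 gene hsp-70 (C12C8.1, at 9317728 to 9327204 on chromosome I, a locus of 2 genes) had 659, 617 and 746 CPM in the transgene strain, 61.0, 58.2 and 74.8 CPM in hsf-1(sy441) and 1005, 1432 and 1075 CPM in N2. The 3 strains did not overlap, with the transgene strain in the middle and nearer to N2. Against hsf-1(sy441) the log2 fold change was 3.38 (adjusted p = 2e-07). Against N2 it was −0.80 with an SE of 0.20 and missed the threshold (adjusted p = 0.051). With the replicate number as a block this adjusted p was 0.0087, and over all alternatives it ran from 0.00015 to 0.31. In unheated animals hsp-70 averaged 0.884 CPM in the transgene strain and 0.431 CPM in N2.

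The small heat shock protein gene hsp-16.2 (Y46H3A.3, at 1799725 to 1809467 on chromosome V) had 2142, 2143 and 2699.8 CPM in the transgene strain, 172, 169 and 224 CPM in hsf-1(sy441) and 3037, 3267 and 3335 CPM in N2. Its neighbour hsp-16.41 (Y46H3A.2), which lies in the same locus of 4 genes, had 2208, 2131 and 2703 CPM in the transgene strain, 209, 194 and 306 CPM in hsf-1(sy441) and 2825, 3287 and 3161 CPM in N2. At both genes every library of the transgene strain was below every N2 library and above every library of hsf-1(sy441). The share of all genes that separate in this way is not given here. The separation from N2 at these genes and at hsp-70 therefore describes these libraries and is no test. The fit gave hsp-16.2 and hsp-16.41 wide errors. Their log2 fold changes against N2 were −0.46 for hsp-16.2 (SE 0.88, adjusted p = 0.82) and −0.40 for hsp-16.41 (SE 1.09, adjusted p = 0.88). Over all alternatives the adjusted p ran from 0.066 to 0.92 for hsp-16.2 and from 0.1 to 0.96 for hsp-16.41. The fit estimated the spread of a gene over all 18 libraries, the unheated ones included, so these p-values do not show equality with N2. At 20 °C, where these genes are nearly silent, replicate 3 of the transgene strain had 20.96 CPM of hsp-16.2 and 49.5 CPM of hsp-16.41, while the other 5 unheated libraries of both strains had at most 1.48 CPM. Of the other genes of this list hsp-16.48 (T27E4.3) was read from 13 to 17 fragments per library in the transgene strain, 1 to 14 in hsf-1(sy441) and 6 to 12 in N2, and so did not share this order (log2 fold change 0.44, adjusted p = 0.74). The gene hsp-16.49 had too few fragments to be tested, and failed estimates left out F44E5.4, F44E5.5, hsp-16.11 and hsp-16.1. So 4 of the 9 inducible genes were tested and none was called.

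**Figure D1:**
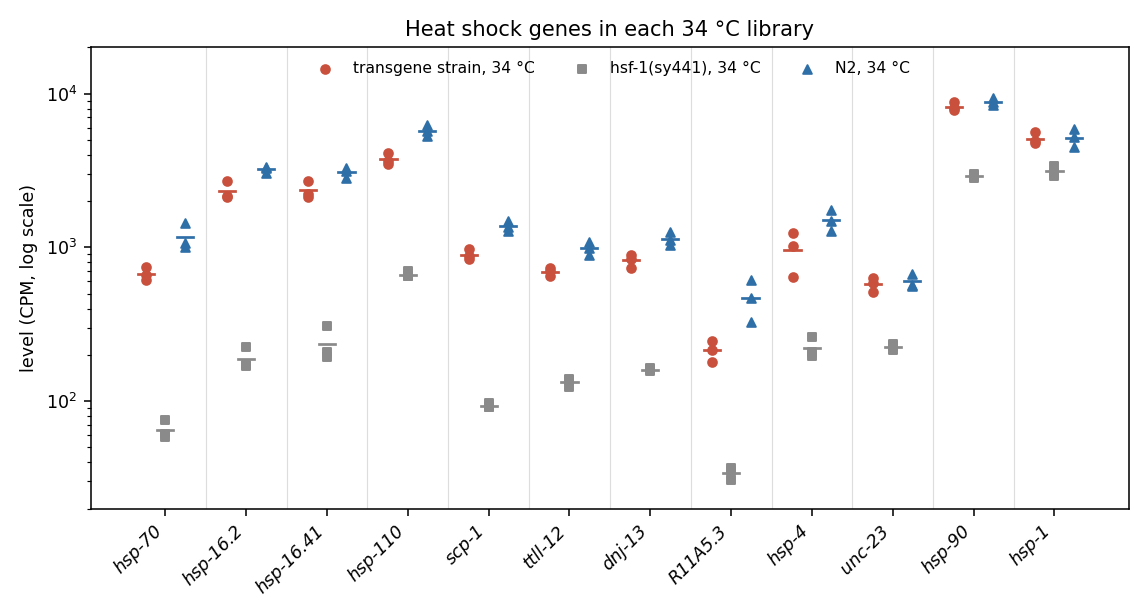
Levels of 12 genes in the 34 °C libraries of the transgene strain, hsf-1(sy441) and N2 (CPM, log scale). They are heat shock and chaperone genes and the heat-raised genes scp-1, ttll-12 and R11A5.3. Each point is 1 library and each bar the mean of 3. The transgene strain lay between hsf-1(sy441) and N2 for hsp-70, hsp-16.2 and hsp-16.41, for example at 617 to 746 CPM of hsp-70, and near N2 for hsp-90 and hsp-1.

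Among genes of the constitutive chaperone machinery that heat raises further, some were lower in the transgene strain and others were level. Other heat-raised genes that are not chaperones of this list (scp-1, ttll-12 and R11A5.3) are given beside them. The Hsp110 gene hsp-110 (C30C11.4, at 8443832 to 8446846 on chromosome III), whose product is a nucleotide exchange factor of Hsp70, had 3487, 3626 and 4130.2 CPM in the transgene strain, 651, 648 and 698 CPM in hsf-1(sy441) and 5311, 6207 and 5684 CPM in N2. It fell with a log2 fold change of −0.61 against N2 and an SE of 0.07 (adjusted p = 0.00029), without overlap. At 20 °C its level did not separate the strains, at 389 CPM in the transgene strain and 381 CPM in N2 (adjusted p = 0.89). The gene of the SREBP escort protein homologue, scp-1 (D2013.8, at 9333953 to 9338838 on chromosome II), had a like pattern, with 877, 839 and 971 CPM in the transgene strain, 91.8, 91.2 and 97.7 CPM in hsf-1(sy441) and 1287, 1480.2 and 1362 CPM in N2. Its log2 fold change against N2 was −0.62 with an SE of 0.07 (adjusted p = 0.00028), and −0.02 at 20 °C. The next gene on the chromosome, the tubulin tyrosine ligase-like ttll-12 (D2013.9, a locus of 2 genes), fell with a log2 fold change of −0.52 (adjusted p = 0.0019). Both scp-1 and ttll-12 were chosen after their values were seen.

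The Hsp40 gene dnj-13 (F54D5.8, a locus of 5 genes) had 841, 738 and 889 CPM in the transgene strain and 1029.5, 1253 and 1118 CPM in N2, a log2 fold change of −0.46 (adjusted p = 0.047). The groups did not overlap, but 12 of 17 alternatives lost the call, leaving out any 1 library other than N2 replicate 3 among them, with adjusted p from 0.002 to 0.46. R11A5.3 (R11A5.3, at 7862837 to 7863548 on chromosome I), which averaged 0.393 CPM in the transgene strain and 0.392 CPM in N2 at 20 °C, had at 34 °C 214, 247 and 180.0 CPM in the transgene strain and 471, 617 and 326 CPM in N2, with a mean of 34.0 CPM in hsf-1(sy441). Its log2 fold change was −1.14 with an SE of 0.24 (adjusted p = 0.02), and the call was lost without N2 replicate 1, without N2 replicate 2, without replicate 1 of the transgene strain or without its replicate 3, with adjusted p of up to 0.076.

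Other chaperones were near the N2 level. The Hsp90 gene hsp-90 (C47E8.5, a locus of 3 genes) had 8804, 8026 and 7863 CPM in the transgene strain and 8454, 8874 and 9309 CPM in N2, ranges that overlapped (log2 fold change −0.11, adjusted p = 0.4). The Hsp70 co-chaperone gene unc-23 had 512, 588 and 629.7 CPM in the transgene strain and 562, 571 and 669 CPM in N2, again overlapping (−0.06, adjusted p = 0.8), and the constitutive Hsp70 gene hsp-1 had a log2 fold change of −0.02 (adjusted p = 0.93). In all, 2 of 16 constitutive cytosolic chaperones were lower (12.5%, against 1.09% of all genes), which are hsp-110 and dnj-13, none was higher and their median was 0.01. Of 13 subunits of the CCT chaperonin and prefoldin, which fold actin and tubulin, cct-3 rose (618, 694 and 636 CPM in the transgene strain, 516, 491 and 516 CPM in N2, log2 fold change 0.36, adjusted p = 0.02), a call lost without N2 replicate 1, without N2 replicate 2 or without replicate 2 of the transgene strain. None of 19 genes of folding in the endoplasmic reticulum was called. Of these 17 had negative log2 fold changes, against 7296 of all 14219 genes, and the median was −0.12. Libraries of the same strain spread by 0.19 in this median (SD, scaled to a difference between libraries). In this list hsp-4, the BiP chaperone of that compartment, had 1019, 1239 and 645 CPM in the transgene strain and 1484, 1743 and 1286 CPM in N2, without overlap (log2 fold change −0.64, adjusted p = 0.11). Its adjusted p was 0.047 with the replicate block and 0.03 to 0.61 over all alternatives.

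Whether the response to heat itself differed between the strains was tested as the difference between the change from 20 to 34 °C in the transgene strain and that in N2. No gene was called by edgeR (0 of 14219). Unadjusted p was under 0.05 at 610 genes, or 4.29%. The smallest adjusted p was 0.35, at hsp-110, with a difference of −0.64 on the log2 scale. DESeq2 called 13 genes, of which 7 were lower and 6 higher in the transgene strain. The lower ones included hsp-110 (−0.65, DESeq2 adjusted p = 1.6e-06), scp-1 (−0.61, DESeq2 adjusted p = 2.2e-05), hsp-70 (−1.88, DESeq2 adjusted p = 0.013) and ttll-12 (−0.44, DESeq2 adjusted p = 0.029), and the higher ones the potassium channel gene shk-1 (0.77, DESeq2 adjusted p = 0.022) and the Argonaute gene ergo-1 (0.47, DESeq2 adjusted p = 0.029). At 34 °C alone the difference of hsp-70 was −0.80 by edgeR (adjusted p = 0.051). The remainder of its value came from the 20 °C levels, which were very low in both strains. With the replicate number as a block edgeR called shk-1 alone (0.77, adjusted p = 0.020). One gene was called without N2 replicate 2 of 34 °C and none without any other single library. None was called by limma.

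The densest cluster of differences lay around hsf-1 itself, on chromosome I. In the stretch from 100 kb left to 250 kb right of the gene, which was chosen after the values were seen and is described without a test, 44 genes other than hsf-1 were measured. Of these 24 were higher in the transgene strain, or 54.5%, 1 was lower, and the median log2 fold change was 0.88. At 20 °C 22 of the same genes were higher, with a median of 0.93. Of 404 windows of 250 kb over the genome, the one from 11750001 to 12000000 held the most genes that were higher, 16 of 25, the next one on the chromosome held 9 of 29, and no other window held more than 4. Chromosome I as a whole had 59 of 2225 genes higher, or 2.65%, against 0.835% to 1.76% on the other chromosomes. Without the 52 genes within 250 kb of hsf-1, 360 genes were called, 206 higher and 154 lower, and 1.45% of the remaining genes were higher.

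Leftward eif-2Bbeta, a subunit gene of the translation factor eIF2B at −65.1 kb, was higher, while dnj-27 at −75.2 kb and ced-1 at −98.0 kb were not called. Rightward the last gene that was higher, nsph-1.2, lay at 228.6 kb, and C15C6.1 at 245 kb was not called. From 250 to 100 kb on the left 0 of 7 genes was higher, from 500 to 250 kb on the left 2 of 30 were, which are scrm-4 and scrm-1, and from 250 to 500 kb on the right 0 of 16.

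Values of 5 members, picked after they were seen, follow. The histone deacetylase gene hda-3 (R06C1.1, at 11912782 to 11917710 on chromosome I) had 102, 104.4 and 104.5 CPM in the transgene strain and 49.0, 44.9 and 47.9 CPM in N2, with a mean of 143 CPM in hsf-1(sy441) (log2 fold change against N2 1.13, SE 0.06, adjusted p = 5.9e-08). The farnesyl diphosphate synthase gene fdps-1 (R06C1.2) had 99.1, 98.2 and 84.7 CPM in the transgene strain and 45.9, 43.9 and 36.0 CPM in N2, with a mean of 109 CPM in hsf-1(sy441). The gene ubc-12 (R09B3.4, a locus of 2 genes), which encodes the enzyme that attaches the ubiquitin-like protein NEDD8, had 99.2, 97.7 and 96.1 CPM in the transgene strain and 54.6, 46.4 and 49.6 CPM in N2, with a mean of 148 CPM in hsf-1(sy441). At these genes the transgene strain lay above N2 in every library and below the mean of hsf-1(sy441). The same held for the actin regulator wve-1 (R06C1.3), with 61.8, 57.7 and 59.5 CPM in the transgene strain, a mean of 103 CPM in hsf-1(sy441) and 27.1, 28.5 and 28.5 CPM in N2. In the other direction rbm-3.1 (R09B3.2), an RNA-binding protein gene, was lower, with 35.5, 24.3 and 27.3 CPM in the transgene strain and 54.6, 60.5 and 42.9 CPM in N2 (log2 fold change −0.86, adjusted p = 0.022), a call lost without N2 replicate 1 or 2 or without replicate 2 or 3 of the transgene strain.

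In hsf-1(sy441), set beside the same N2 libraries, 35 of the 44 genes were higher, against 14.8% of all genes, with a median of 1.58. Directly compared, the transgene strain was below hsf-1(sy441) at 23 of the 44 and above it at none, with a median of −0.60. Over all genes 5.24% were lower and 3.9% higher in that comparison. The log2 fold change of hsf-1 against N2 was 1.62 in the transgene strain, where the neighbours' median was 0.88. Called neighbours there reached up to 1.51, at rga-2 (adjusted p = 0.037), and sri-16 had 2.34 without a call (adjusted p = 0.31). In hsf-1(sy441) the value of hsf-1 was 1.45, where the neighbours' median was 1.58. Fragments of the transgene were counted with hsf-1 in the transgene strain, and their part in its value was not tested.

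**Figure D2:**
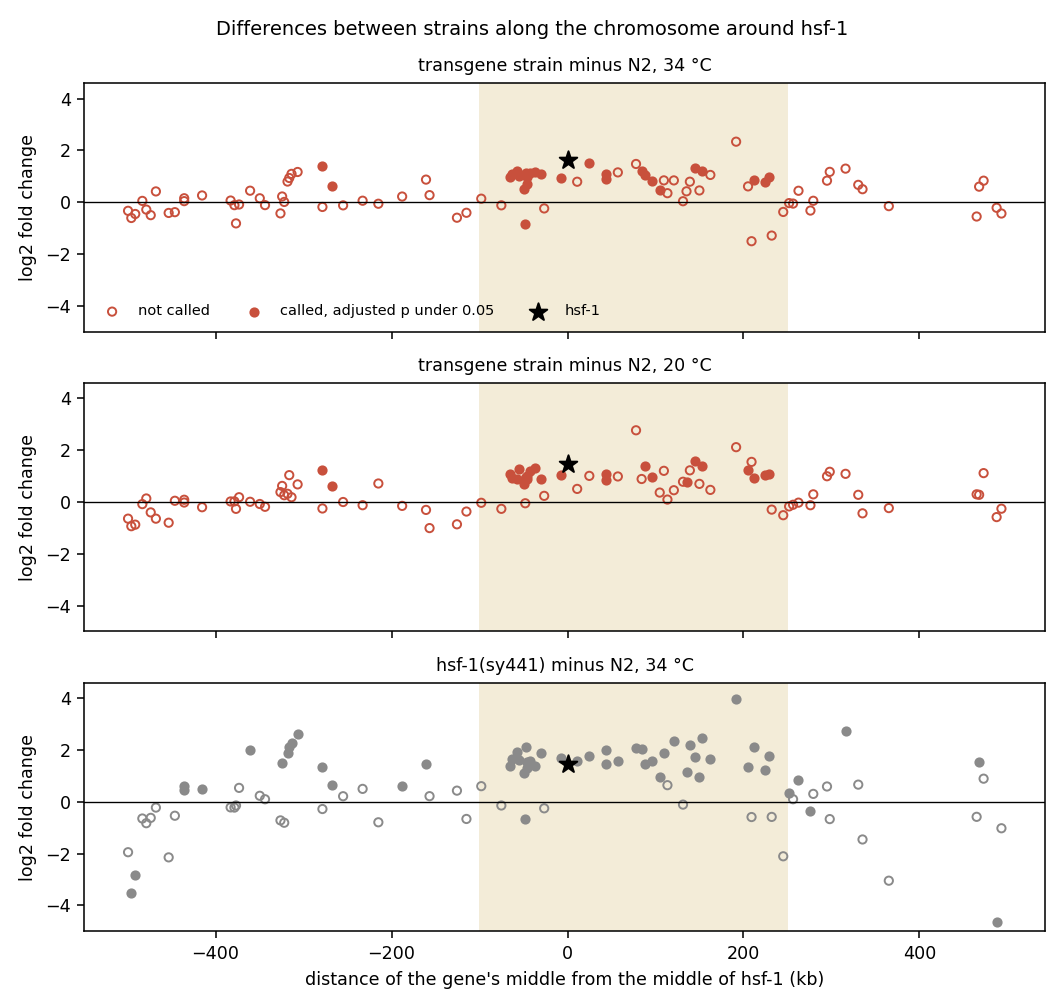
Log2 fold change of each tested gene within 500 kb of hsf-1 against the distance between gene middles in kb, for the transgene strain over N2 at 34 °C and at 20 °C and for hsf-1(sy441) over N2 at 34 °C. Filled points are called genes, the star is hsf-1 and the shaded stretch runs from −100 to 250 kb; within it the points sit near a median of 0.88 in the first panel and 1.58 in the last.

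On chromosome II, which carries rmSi1, a pair of neighbouring genes differed in opposite directions. The aquaporin gene aqp-10 (ZK1321.3, at 9768392 to 9769793 on chromosome II) had 0 fragments in all 3 heated libraries of the transgene strain, against 159, 114 and 126 CPM in N2 and a mean of 101 CPM in hsf-1(sy441). With a floor of 3 fragments over the 3 libraries it was at least 2544-fold lower in the transgene strain than in N2 (adjusted p = 1.4e-09). At 20 °C the transgene strain had 4 fragments of it in all, and N2 averaged 102 CPM. The gene next to it, shk-1 (ZK1321.2, at 9758175 to 9768206 on chromosome II), which encodes a voltage-gated potassium channel, had 66.6, 65.9 and 83.2 CPM in the transgene strain, a mean of 18.1 CPM in hsf-1(sy441) and 17.4, 17.4 and 18.9 CPM in N2. It rose with a log2 fold change of 2.00 and an SE of 0.12 (adjusted p = 1.5e-07), and by 1.22 at 20 °C (adjusted p = 2.7e-05). Each library of the transgene strain was above every library of the other strains, and hsf-1(sy441) and N2 overlapped (adjusted p = 0.95). Elsewhere on chromosome II F14E5.8, chosen after values were seen and outside the rule for the largest rises, rose by 5.43 (adjusted p = 0.001). Its call stayed when each library was left out in turn and was lost in the fit of the 6 libraries alone (adjusted p = 0.13). The labels give no position for rmSi1, and a link between it and these genes was not tested.

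Among the 12 largest rises several genes were also high in hsf-1(sy441). F32B5.1 (F32B5.1, at 2700422 to 2702084 on chromosome I) had 9.62, 12.08 and 9.49 CPM in the transgene strain, 9.96, 8.59 and 7.46 CPM in hsf-1(sy441) and 0.139, 0.102 and 0.468 CPM in N2. This was a log2 fold change of 5.48 over N2 with an SE of 0.33 (adjusted p = 1.3e-07). C38D9.2 (at 17566413 to 17571577 on chromosome V) had 19.1, 20.99 and 18.8 CPM in the transgene strain, 25.5, 29.2 and 23.7 CPM in hsf-1(sy441) and 0.488, 0.716 and 1.14 CPM in N2. At both genes the 2 strains with the sy441 allele were far above N2, with no overlap. F33H2.6 (3.11, adjusted p = 5.9e-08), the cation-transporting ATPase gene catp-3 (3.00, adjusted p = 0.00044) and mbug-1 (2.70, adjusted p = 0.0017) followed in size. The immune genes lys-7 and sysm-1 rose too. The lysozyme gene lys-7 (C02A12.4) had 245, 252 and 321 CPM in the transgene strain, a mean of 170.0 CPM in hsf-1(sy441) and 47.6, 32.6 and 85.8 CPM in N2 (log2 fold change 2.30, adjusted p = 0.0021). The gene sysm-1 (T24B8.5), a target of the p38 kinase PMK-1 in this species, had 10.3, 10.5 and 13.4 CPM in the transgene strain and 3.70, 2.40 and 3.08 CPM in N2 (1.90, adjusted p = 5.9e-05). Both had no overlap between the strains, as the rule for the largest rises required.

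Other rises set the transgene strain apart from hsf-1(sy441) as well. The beta-tubulin gene tbb-6 (T04H1.9, a locus of 2 genes) had 18.3, 17.7 and 25.4 CPM in the transgene strain, 3.99, 2.09 and 3.16 CPM in hsf-1(sy441) and 2.93, 3.84 and 3.68 CPM in N2. The log2 fold change was 2.55 over N2 (adjusted p = 1.5e-05) and 2.73 over hsf-1(sy441) (adjusted p = 3.4e-06), while hsf-1(sy441) and N2 overlapped. The carboxylesterase gene cest-32 (C52A10.1) had 54.3, 46.0 and 88.5 CPM in the transgene strain, a mean of 24.4 CPM in hsf-1(sy441) and 20.6, 16.37 and 24.8 CPM in N2. Its log2 fold change was 1.61 over N2 (adjusted p = 0.002) and 1.37 over hsf-1(sy441) (adjusted p = 0.003). The fatty acid desaturase gene fat-5 (a locus of 2 genes) completed the list, with 51.3, 46.0 and 45.7 CPM in the transgene strain and 8.23, 14.7 and 13.4 CPM in N2 (adjusted p = 0.049), a call that was lost without any 1 of the 6 libraries.

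**Figure D3:**
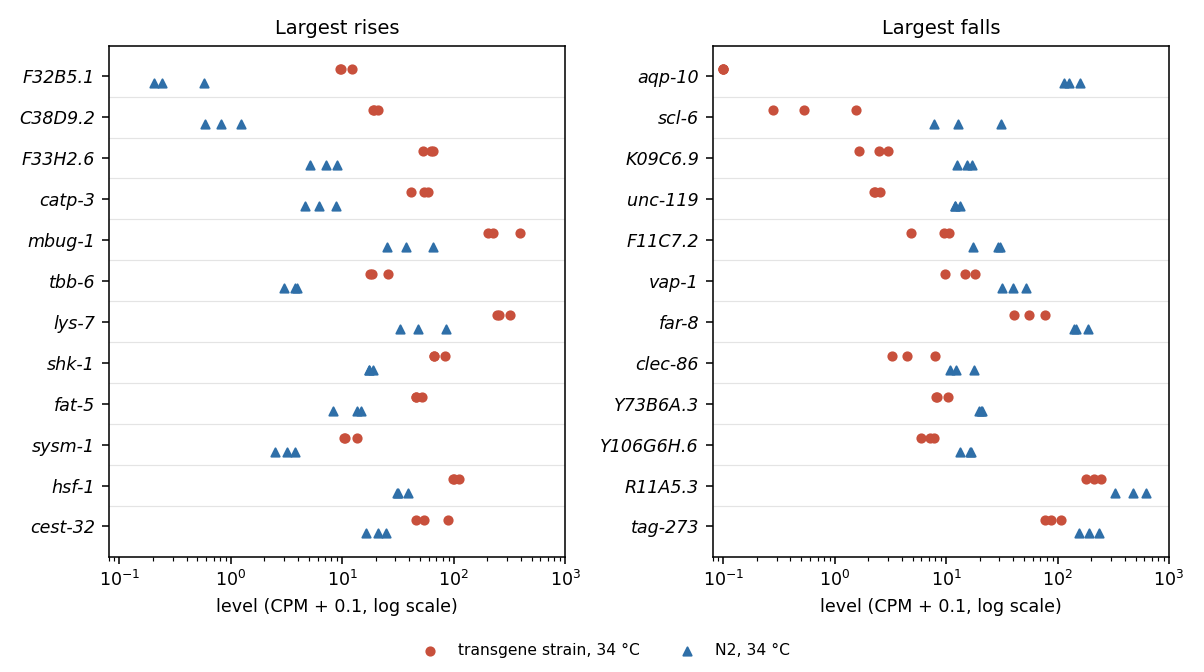
Levels of the 12 genes with the largest rise (left) and the 12 with the largest fall (right) in each heated library of the transgene strain and N2 (CPM + 0.1, log scale). The genes were chosen for no overlap between the strains, so the separation at all 24 follows from the rule. The level of aqp-10 was 0 in all 3 libraries of the transgene strain.

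After aqp-10 the largest fall was that of scl-6. The gene scl-6 (C39E9.4, at 13068744 to 13070266 on chromosome IV), of the SCP family of secreted proteins, had 0.424, 0.178 and 1.45 CPM in the transgene strain, 19.5, 26.1 and 20.8 CPM in hsf-1(sy441) and 12.55, 7.73 and 30.6 CPM in N2. It fell with a log2 fold change of −4.77 and an SE of 0.76 (adjusted p = 0.0035), and the transgene strain was below the other strains in every library. K09C6.9 (at 853465 to 855077 on chromosome V) had 2.88, 1.56 and 2.39 CPM in the transgene strain and 15.4, 12.4 and 16.8 CPM in N2 (−2.71, adjusted p = 1.3e-05). The neighbours F11C7.2 (−1.64, adjusted p = 0.0076) and vap-1 (−1.54, adjusted p = 0.0012), the second of the venom allergen-like SCP family, both fell on chromosome X. The fatty acid and retinol binding protein gene far-8 (K02F3.3) had 54.8, 40.7 and 77.2 CPM in the transgene strain, a mean of 133 CPM in hsf-1(sy441) and 147, 139.9 and 186 CPM in N2 (log2 fold change −1.45, adjusted p = 0.00035). At scl-6, K09C6.9, F11C7.2, vap-1 and far-8 hsf-1(sy441) was not called against N2, with adjusted p from 0.25 to 0.97. In contrast tag-273 (Y57G11A.1) was low in both strains with the sy441 allele, at 87.2, 106 and 76.9 CPM in the transgene strain, 61.5, 79.7 and 68.6 CPM in hsf-1(sy441) and 191, 236 and 156 CPM in N2. The C-type lectin gene clec-86 (C54D1.2, a locus of 2 genes), with 4.34, 7.84 and 3.19 CPM in the transgene strain and 12.06, 17.8 and 10.6 CPM in N2 (adjusted p = 0.019), lost its call without N2 replicate 2 or without replicate 1 or 3 of the transgene strain. Y73B6A.3 (−1.21) and Y106G6H.6 (−1.15, a locus of 2 genes) completed the 12.

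Most differences between the heated strains had the same sign without heat, in libraries that entered neither group of the 34 °C comparison. At 20 °C 189 genes were called (1.33%), of which 135 were higher (0.949%) and 54 lower (0.38%) in the transgene strain. Of the 231 genes higher at 34 °C 96 were also called higher at 20 °C, which is 41.6% of the first list and 71.1% of the second. Of the 155 lower genes 36 were shared, or 23.2% and 66.7%. No gene was called in opposite directions. Including genes not called at 20 °C, 221 of the 231 (95.7%) and 145 of the 155 (93.5%) had the same sign there, against 49.3% and 50.5% of all genes. The median log2 fold change of the 34 °C lists was 0.49 and −0.26 at 20 °C. Both comparisons shared 1 estimate of the spread.

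**Figure D4:**
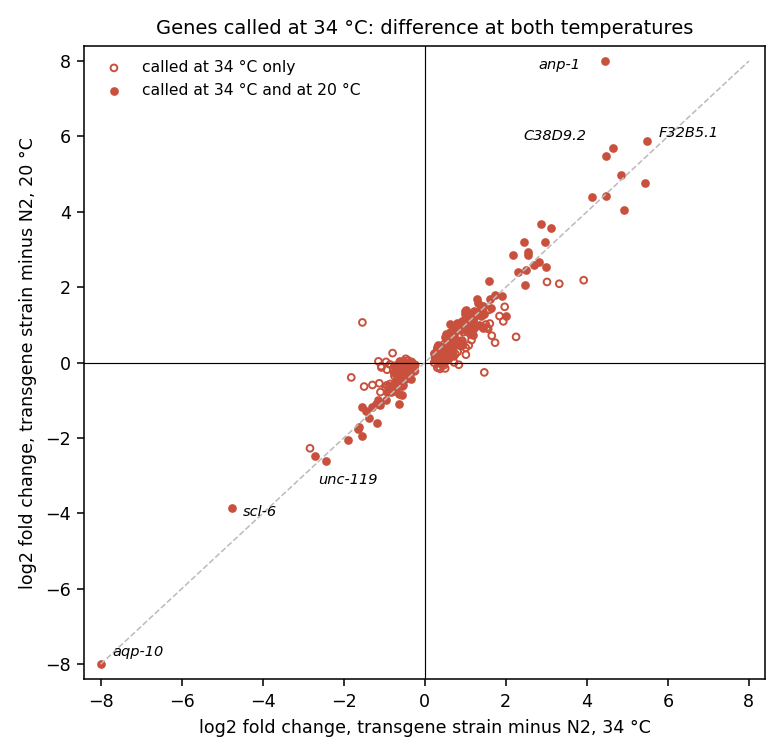
Log2 fold change of the transgene strain over N2 at 34 °C (horizontal) and 20 °C (vertical) for the 386 genes called at 34 °C, filled where they were also called at 20 °C; the dashed line marks equal values. The points run from aqp-10 and scl-6 to F32B5.1, with medians nearer to 0 at 20 °C (0.49 and −0.26) than at 34 °C (0.70 and −0.59); aqp-10 on both axes and anp-1 on the vertical axis lay beyond the range shown and are drawn at its edge.

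Gene lists chosen from general knowledge moved little as groups, with calls at single members. Genes of peroxisomal beta-oxidation, the pathway that shortens very long fatty acids and makes ascaroside pheromones in worms, had the largest share of calls among the 39 lists counted. This list was drawn up after its leading genes had been seen, so its count describes these libraries and is no independent evidence. Of its 21 tested genes 7 were lower and none higher, or 33.3% against 2.71% of all genes, with a median of −0.37. The enoyl-CoA hydratase gene maoc-1 (E04F6.3, a locus of 2 genes) had 137, 138 and 162 CPM in the transgene strain, 110.01, 127 and 121 CPM in hsf-1(sy441) and 245, 253 and 276 CPM in N2 (log2 fold change against N2 −0.82, adjusted p = 8.6e-05). The thiolase gene daf-22 (Y57A10C.6) had 188, 195 and 189.9 CPM in the transgene strain, 173, 189.7 and 157 CPM in hsf-1(sy441) and 276, 284 and 243 CPM in N2 (−0.49, adjusted p = 0.014). The dehydrogenase genes dhs-28 (−0.40) and dhs-6 (−0.70), the acyl-CoA synthetase gene acs-7 (−0.88), the transporter gene pmp-2 (−0.34) and the lipid transfer protein gene nlt-1 (−0.37) were the others. The members that fell did so by less than 2-fold, and each stood between hsf-1(sy441) and N2 in its mean. Between 1 member, without replicate 1 of the transgene strain, and 6 members, without N2 replicate 3, were called when a library was left out. With the replicate block 12 were lower (57.1%, against 4.36% of all genes). At 20 °C 2 were lower, against 0.38% of all genes. In hsf-1(sy441) against the same N2 libraries 14 were lower and 1 higher (14.2% and 14.8% of all genes), with a median of −0.63.

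Protein turnover and detoxification genes had small negative medians with few calls. Over all genes 1.62% were higher and 1.09% lower, or 4.09% and 4.36% with the replicate block. None of 30 proteasome subunits was called, and 10 were lower with the replicate block. Of the 30, 28 had negative log2 fold changes, against 7296 of all 14219 genes, and the median was −0.22. Libraries of the same strain spread by 0.38 in this median (SD, scaled to a difference between libraries). The members were measured in the same libraries and are not replicates. Of 54 glutathione S-transferase and oxidative response genes 3 were lower, which are gst-1 (−0.48), trx-2 (−0.35) and gsto-1 (−0.33), and none was higher. With the block 8 were lower and 1 higher, and without 1 library 1 to 6 were lower. The thioredoxin gene trx-2 (B0024.9, a locus of 2 genes) had 92.7, 89.3 and 89.4 CPM in the transgene strain and 126, 111 and 109 CPM in N2 (adjusted p = 0.0085), without overlap. Of 74 cytosolic ribosomal protein genes 1 was lower (13 with the block), of 70 mitochondrial ones 1 was higher and 1 lower (1 and 12 with the block), and of 36 genes of the respiratory chain and ATP synthase asb-1 was lower (−0.58, adjusted p = 0.0017; 6 with the block). Without N2 replicate 3 23 mitochondrial ribosomal protein genes were lower, in a fit that called 440 of all genes lower. None of 133 cuticle collagens was called, although 9 were higher with the block.

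Small RNA genes moved in both directions. Of 16 Argonaute genes, whose products bind small RNAs, 3 were higher and none lower, or 18.8% against 2.71% of all genes, with a median of 0.15. The gene ergo-1 (R09A1.1, a locus of 2 genes), a primary Argonaute of small RNAs in oocytes and embryos, had 60.2, 64.2 and 64.04 CPM in the transgene strain, 48.5, 47.8 and 41.8 CPM in hsf-1(sy441) and 36.6, 41.3 and 43.1 CPM in N2. The transgene strain was above the other strains in every library, by 0.64 over N2 (adjusted p = 0.00036) and 0.45 over hsf-1(sy441) (adjusted p = 0.0029). The gene sago-1 (K12B6.1), a secondary Argonaute, had 29.5, 32.4 and 27.5 CPM in the transgene strain and 21.7, 20.6 and 20.9 CPM in N2 (0.50, adjusted p = 0.0044), and the nuclear Argonaute gene nrde-3 had a log2 fold change of 0.48 (adjusted p = 0.014), lost without N2 replicate 1 or 2 or without replicate 2 of the transgene strain. Of 24 tested genes of germ granules and the piRNA pathway, a list drawn up after values were seen, 6 were lower (25%, against 1.09% of all genes) and none higher. The median was −0.28, with 23 negative values, against 7296 of all 14219 genes. The germ granule gene pgl-1 (ZK381.4) had 60.8, 45.3 and 50.0 CPM in the transgene strain and 77.9, 88.5 and 77.4 CPM in N2 (−0.64, adjusted p = 0.02), and the eIF5A gene iff-1 (T05G5.10), used in the germline, had 166, 116 and 126 CPM in the transgene strain and 222, 239 and 192 CPM in N2 (−0.68, adjusted p = 0.022). Neither gene overlapped between the strains. The others were pgl-2 (−0.54), henn-1 (−0.54), tost-1 (−0.57) and tofu-2 (−0.57). Without N2 replicate 1 none of this list was called, and without N2 replicate 3 7 were. The germline markers moved with this list, as all 12 had negative log2 fold changes with pgl-1 called, and their part in it was not tested. Both lists hold pgl-1, pgl-3, glh-1 and glh-2.

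Cilium genes had mostly positive log2 fold changes. Of 35 genes of intraflagellar transport and the cilium, a list also drawn up after values were seen, 32 were positive, against 6921 of all 14219 genes. Their median was 0.44, and 5 were higher (14.3%, against 1.62% of all genes), all at low levels. The kinesin gene osm-3 (M02B7.3, a locus of 2 genes) had 4.91, 4.55 and 5.43 CPM in the transgene strain, 6.85, 7.74 and 7.79 CPM in hsf-1(sy441) and 2.72, 2.81 and 3.21 CPM in N2 (log2 fold change against N2 0.76, adjusted p = 0.015). The transport particle gene osm-5 (Y41G9A.1) had 5.14, 5.93 and 6.37 CPM in the transgene strain and 3.70, 4.09 and 3.28 CPM in N2 (0.65, adjusted p = 0.017), and osm-12 (1.02), ift-139 (0.79) and che-11 (0.69) were the others. At 20 °C none was called and the median was 0.25. Without N2 replicate 1 none was called at 34 °C, and without N2 replicate 3 5 were. The neuron markers moved little beside it, as 1 of 29, unc-25 of GABA synthesis, was higher (0.76, adjusted p = 0.026), and unc-119 and pgal-1 were lower.

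**Figure D5:**
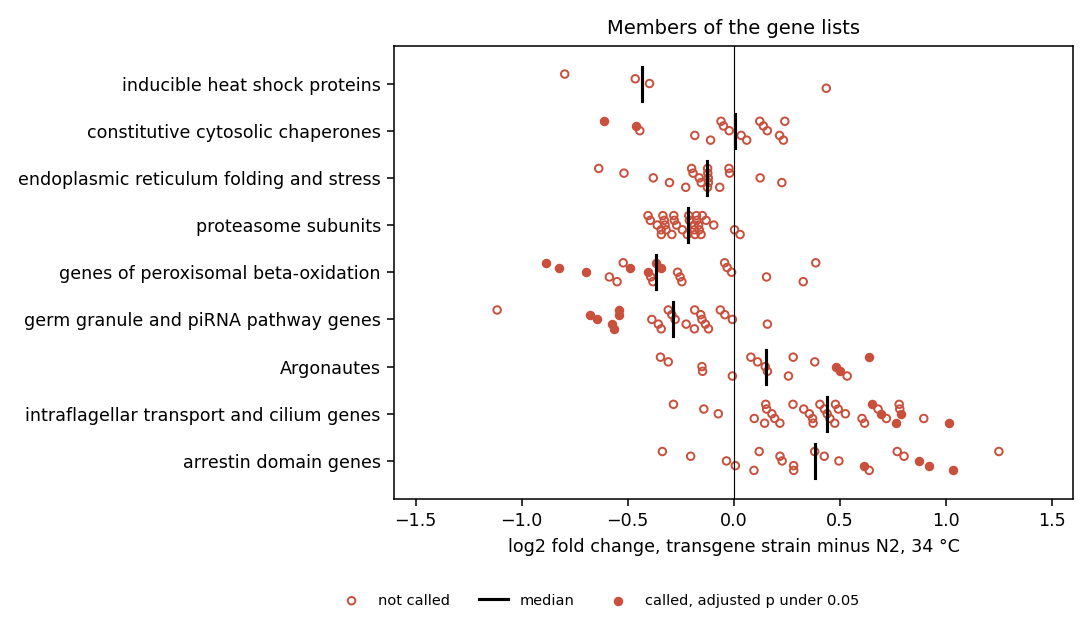
Log2 fold change of the transgene strain over N2 at 34 °C for each tested member of 9 gene lists; each point is 1 gene, filled where called, and each bar is the median of the list. Medians ran from −0.43 for the 4 inducible heat shock proteins to 0.44 for cilium genes.

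Finally, genes that heat changes without full HSF-1 activity were read from the heat response of hsf-1(sy441), in libraries that enter neither group of the comparison. Of 238 genes raised 4-fold or more there, 3 were called at 34 °C, or 1.26% against 2.71% of all genes. The Mediator subunit gene mdt-26 (0.45, adjusted p = 0.01) and srr-6 (1.61, adjusted p = 0.013) were higher and R11A5.3 was lower. Their median log2 fold change was 0.27 at 34 °C and 0.14 at 20 °C. Of 111 genes lowered 4-fold or more 1 was called, ttr-43 (1.12, adjusted p = 0.034), and their median was −0.01.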

How the data were processed

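Polyadenylated RNA of whole mid-L2 larvae was sequenced in 18 libraries, and this comparison uses the 6 of the transgene strain and N2 at 34 °C. Per the submitters' processing notes, the authors used TopHat2, Cuffdiff and the build ce10. Their versions and the annotation are not stated in the labels. The deposited table of read groups holds, per the file headers, unscaled expected counts for each gene in each library and the authors' FPKM values, scaled between libraries. The deposited test tables hold the authors' log2 ratios of FPKM and their p-value and q-value columns. The table numbers replicates from 0 and the labels from 1. Both were matched in order.

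Of the counts 92.4% were whole, and the others were rounded. The table had 20389 genes, of which 19879 (97.5%) were matched to RefSeq names. Genes with a failed estimate in any of the 18 libraries (114, with 7.20% to 7.75% of the fragments in the 6 libraries) were left out. Cuffdiff joined 4149 genes with others into shared loci, and their values are uncertain. Reads are PCR copies, so the floor of 3 fragments covers counting error only.

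Counts were analysed in R 4.3.3 with edgeR 4.0.16: filterByExpr over the 6 groups, TMM factors (0.888 to 0.929 in the transgene strain, 0.850 to 0.876 in N2), 1 mean per group over all 18 libraries, robust quasi-likelihood tests and Benjamini-Hochberg adjustment, called at 0.05. The biological coefficient of variation was 25.3%. In 5 simulations of this comparison with 200 changed genes of over 5 CPM among 14219, calls recovered 29.9% of 1.5-fold, 75.5% of 2-fold and 91.8% of 4-fold changes, with 3 to 11 false calls. Simulated counts were drawn independently for each gene and library. They lack the deviations that real libraries shared, so these rates need not hold for the real calls. Same-numbered libraries of both strains deviated together (correlations over genes of 0.43, 0.70 and 0.79, all above 0.1). Pairs of different number had −0.80 to 0.44, so 1 of them exceeded a same-numbered pair. Deviations were taken from each group's mean, so these correlations are not independent of each other. Whether the numbers pair the libraries is not labelled. The main fit and its p-values do not use a pairing, and a fit with the replicate block was an alternative. Others were RLE factors, total counts, DESeq2 1.42.0, limma 3.58.1 on log2(FPKM + 0.1) and log2(FPKM + 1), no filter, the 6 libraries alone and each library left out.

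The members and lists were chosen with earlier results of these data known. Genes named were hsf-1 and unc-119, the inducible heat shock proteins, the 12 largest rises and 12 largest falls among called genes that reached 10 CPM in the higher group without overlap, up to 4 called members of each list (hsp-90, hsp-110, dnj-13 and unc-23 in any case) and up to 3 interaction genes each way. Of 39 lists 35 came from general knowledge and 4 were added after values were seen, as were the genes around hsf-1, aqp-10's neighbour and other genes named outside this rule.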

Additional observations from a re-analysis of the deposited data

How the results depend on the processing

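Of the 386 calls at 34 °C, alternatives gave 924 with DESeq2, 225 with limma on log2(FPKM + 0.1), 242 on log2(FPKM + 1), 208 with limma and no filter, 23 in a fit of the 6 libraries alone, 241 in that fit with the replicate block, 1202 with the replicate block in all 18 libraries, and 164 to 874 without 1 library. The 34 °C calls numbered 288 without the filter, 402 with RLE factors and 425 with total counts. The median of all genes moved by under 0.1 on the log2 scale. At 20 °C the 189 calls became 450 with DESeq2, 122 with limma, 642 with the replicate block and 101 to 156 without 1 library. The 1299 calls against hsf-1(sy441) became 2239 with DESeq2, 788 with limma, 3178 with the replicate block and 623 to 1846 without 1 library, and the 4124 of hsf-1(sy441) against N2 became 2319 to 5286 without 1 library. The heat response difference had 0 calls, 13 with DESeq2, 1 with the replicate block and 0 to 1 without 1 library. None of the called genes recomputed one by one under the alternatives changed sign (some named genes, among them srr-6, ttr-43 and osm-5, were not recomputed), but the excess of higher over lower calls at 34 °C turned under DESeq2, the replicate block in all 18 libraries and without N2 replicate 3. Some uncalled genes near 0 changed sign, such as unc-23 (−0.13 to 0.02). The heat-raised set of hsf-1(sy441) had a median of 0.20 at 2-fold. Of the 12 largest rises and 12 largest falls, all but fat-5, clec-86 and R11A5.3 stayed called without any 1 library. In the fit of the 6 libraries alone, only hsf-1, F32B5.1, C38D9.2, F33H2.6, catp-3, tbb-6, shk-1, aqp-10, K09C6.9 and unc-119 of these genes stayed called. The calls of hsp-110, scp-1, maoc-1 and ergo-1 were also lost in that fit. The cause of these shifts was not tested. Depth limits genes of a few fragments, such as hsp-16.48.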

Other observations

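Arrestin domain genes, whose products adapt membrane proteins for trafficking, were higher for some members. The list was drawn up after values were seen. Of 21 tested genes 4 were higher and none lower (19% against 2.71% of all genes), with a median log2 fold change of 0.38, and without 1 library 3 to 6 were higher. The gene arrd-19 (F35F10.12) had 29.8, 32.8 and 37.96 CPM in the transgene strain, 27.1, 22.4 and 25.5 CPM in hsf-1(sy441) and 18.2, 14.2 and 16.7 CPM in N2 (1.03, adjusted p = 5.9e-05 in edgeR's quasi-likelihood test). The transgene strain was above N2 in every library. The gene arrd-13 (R06B9.3) had 89.8, 88.2 and 85.6 CPM in the transgene strain, 53.6, 59.8 and 54.1 CPM in hsf-1(sy441) and 43.8, 41.6 and 58.7 CPM in N2 (0.87, adjusted p = 0.0024). Its libraries in the transgene strain were above all of the other strains. The others were arrd-7 (0.92) and arrd-18 (0.62).

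The lists of signalling and defence genes described next had 2.25% to 5.71% of their members called, against 2.71% of all genes. A further defence list, 23 tested pals genes and genes of the intracellular pathogen response, had none called, with or without the replicate block. Of 129 neuropeptide genes 5 were lower and 1 higher. The gene nlp-51 (T24F1.5) had 4.43, 4.28 and 3.48 CPM in the transgene strain and 8.30, 11.5 and 6.76 CPM in N2 (−1.12, adjusted p = 0.0017). The insulin-like peptide genes ins-7 (1.33, adjusted p = 0.022) and ins-6 (−0.94, adjusted p = 0.014) moved in opposite directions at levels below 3 CPM, and both calls were lost without N2 replicate 1. Of 70 lysozyme, saposin and antimicrobial peptide genes 3 were higher, which are lys-7, lys-10 (2.97) and lys-1 (0.48), and spp-4 was lower (−0.85). Calls of lys-10, lys-1 and spp-4 were each lost without N2 replicate 1 or 2. Of 116 C-type lectin genes clec-41 (128, 131 and 203 CPM in the transgene strain, 45.7, 50.9 and 79.9 CPM in N2, adjusted p = 0.0023) and clec-76 were higher and clec-86 was lower. Of 222 nuclear hormone receptor genes 4 were higher and 1 lower (13 and 2 with the replicate block, or 5.86% higher against 4.09% of all genes), and of 209 F-box, MATH and BTB genes 5 were higher and 3 lower (16 and 3 with the block).

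In the authors' deposited table of Cuffdiff tests for the same pair of groups, 363 of 13850 genes with an estimate were significant, 225 of them higher and 138 lower in the transgene strain. Of these 105 were also called by edgeR, all with the same sign.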
